A study of Mus musculus with 22 samples.

Results

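Erythroid genes were followed in RNA-seq of a transplanted mouse B-cell leukemia, as a readout of red cell precursors recovered together with the tumor. The 8 genes were Hbb-bs, Hbb-bt, Hba-a1, Hba-a2, Alas2, Klf1, Slc4a1 and Epor, chosen by name. The deposited counts of transcripts that GENCODE assigns to each gene were summed, and these were 8 of the 17023 genes measured in 22 libraries. Not all annotated transcripts entered the sums, for example 2 of 25 for Hbb-bs and 1 of 3 for Klf1.

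The leukemia was TCL1-355 TKO, a murine cell line from the Eμ-TCL1 transgenic model of chronic lymphocytic leukemia, in which the Eμ enhancer drives the TCL1 oncogene in B cells. All groups carried this transgene and the disruptions of Cdkn2a and Cdkn2b of the line. NFKBIE-ko cells had been edited with Cas9 ribonucleoprotein at Nfkbie, the gene of the NF-κB inhibitor IκBε, and NFKBIE-wt cells were mock-edited. Each genotype was propagated in 1 C57BL/6 mouse before injection into the peritoneum of 5 C57BL/6 recipients, so propagation and genotype cannot be told apart. The spleen and the peritoneal cavity (PC) were sampled 10 days later, and 4 libraries were made for each genotype and site. The recovered cells were not purified, and the recipients kept their own blood-forming cells. A further 3 libraries of each genotype came from spleen cells of 3 mice, which the study cultured separately in vitro for 2 weeks. The labels give the tissue of all 22 samples as blood and name no age or sex.

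Red cell precursors assemble hemoglobin from α-globin and β-globin chains and from heme, under transcription factors such as KLF1 and GATA1, and their early stages need erythropoietin acting on its receptor. In adult mice the red pulp of the spleen makes red cells beside the bone marrow, and this output expands under stress. As precursors mature, transcripts of the receptor decline while globin mRNA accumulates and persists into reticulocytes, and B cells make neither in quantity.

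The adult β-globin genes Hbb-bs (chr7:103475730-103482989) and Hbb-bt (chr7:103461727-103465047) lie on the minus strand of GRCm39. The adult α-globin genes Hba-a1 (chr11:32233186-32234504) and Hba-a2 (chr11:32246168-32247320) lie on the plus strand. Each pair is nearly the same over its coding sequence, which bears on how reads were divided between its members. The coding sequences of Hbb-bs and Hbb-bt, 441 bases each, differed at a single position, C417T, counted from 1 at the first base of the start codon with the Hbb-bs base first. Those of Hba-a1 and Hba-a2, 426 bases each, also differed at 1 position, C381T, with the Hba-a1 base first. The 60 coding bases around each difference are given 5′ to 3′ from the GENCODE transcripts, with the differing base in capitals, at chr7:103475875-103475934, chr7:103461866-103461925, chr11:32234313-32234372 and chr11:32247130-32247189 in turn.
Hbb-bs: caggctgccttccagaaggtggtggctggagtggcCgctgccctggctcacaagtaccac
Hbb-bt: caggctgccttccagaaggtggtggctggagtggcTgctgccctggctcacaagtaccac
Hba-a1: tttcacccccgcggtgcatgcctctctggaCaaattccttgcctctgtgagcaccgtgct
Hba-a2: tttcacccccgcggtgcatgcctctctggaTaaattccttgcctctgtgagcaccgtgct
Over whole transcripts, 63.1% of the 31-base words of Hbb-bs also occur in Hbb-bt, and 82.8% of those of Hba-a1 occur in Hba-a2. Reads from these shared stretches were apportioned by the authors' quantification, so the split within each pair is less certain than its sum.

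The other members are single genes. Alas2 (chrX:149330371-149353634, plus strand) encodes the erythroid enzyme that starts heme synthesis. Klf1 (chr8:85628557-85631934, plus strand) encodes an erythroid transcription factor, Slc4a1 (chr11:102239650-102257029, minus strand) the band 3 anion exchanger of the red cell membrane, and Epor (chr9:21870192-21874879, minus strand) the erythropoietin receptor. The antisense genes Apex2, Gcdh and Swsap1 overlap Alas2, Klf1 and Epor in that order, and without stated strand use their reads cannot be told apart where they overlap.

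Because the globin genes and Alas2 varied together across spleens, the 200 bases before their starts are shown from RefSeq on GRCm38.p6, with those of Klf1 and Epor. Of the 8 genes 7 had an entry. Hba-a2 is left out because it shares an unbroken run of 197 bases with Hba-a1. Capitals mark AGATAA and TGATAA (letters bound by GATA factors), CACACCC (bound by KLF1) and CCAAT, each searched on both strands. These occur in 7.8%, 6.18%, 5.8% and 29.3% of the same window of 32851 promoters. The windows are chr7:103827929-103828128, chr7:103813924-103814123, chr11:32283472-32283671, chrX:150547217-150547416, chr8:84901782-84901981 and chr9:21963577-21963776.
Hbb-bs: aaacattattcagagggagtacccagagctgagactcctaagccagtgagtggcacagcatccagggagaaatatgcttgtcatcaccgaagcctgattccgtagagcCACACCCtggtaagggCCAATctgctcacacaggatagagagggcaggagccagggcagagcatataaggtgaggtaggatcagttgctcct
Hbb-bt: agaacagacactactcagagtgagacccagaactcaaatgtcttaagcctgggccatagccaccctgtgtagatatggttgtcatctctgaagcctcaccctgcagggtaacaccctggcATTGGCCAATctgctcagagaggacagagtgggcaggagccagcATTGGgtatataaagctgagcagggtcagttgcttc
Hba-a1: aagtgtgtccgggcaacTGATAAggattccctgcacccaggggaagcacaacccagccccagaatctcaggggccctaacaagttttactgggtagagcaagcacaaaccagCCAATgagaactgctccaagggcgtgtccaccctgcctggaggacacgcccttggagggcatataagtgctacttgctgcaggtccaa
Alas2: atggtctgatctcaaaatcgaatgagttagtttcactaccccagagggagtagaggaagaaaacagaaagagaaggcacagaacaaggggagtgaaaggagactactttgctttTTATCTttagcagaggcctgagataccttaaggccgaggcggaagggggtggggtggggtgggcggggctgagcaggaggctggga
Klf1: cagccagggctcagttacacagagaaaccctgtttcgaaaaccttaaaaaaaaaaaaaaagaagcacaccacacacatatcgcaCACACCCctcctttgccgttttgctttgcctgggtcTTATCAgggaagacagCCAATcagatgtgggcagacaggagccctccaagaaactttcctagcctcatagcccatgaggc
Epor: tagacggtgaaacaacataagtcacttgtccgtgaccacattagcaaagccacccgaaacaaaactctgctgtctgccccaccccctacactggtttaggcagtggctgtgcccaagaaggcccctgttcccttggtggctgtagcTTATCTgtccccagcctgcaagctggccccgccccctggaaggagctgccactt
A GATA word was found before Hba-a1, Alas2, Klf1 and Epor, 183, 86, 80 and 54 bases before the start, and in neither β-globin window. CACACCC was found before Hbb-bs and Klf1, 92 and 116 bases before the start. In Hbb-bt the CCAAT word, 75 bases before the start, lies directly beside its reverse complement at 80 bases, and a further reverse complement lies 36 bases before the start. At the best alignment the windows of Hbb-bs and Hbb-bt matched at 118 of 200 bases, with no unbroken run over 14 bases, so the β-globin pair differs more in front of its genes than within them.

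Library totals ran from 24036763 to 26581304 estimated counts. Levels are given as CPM, counts scaled to a total of 1000000 after TMM normalization. At this depth a count of 0 allows up to 3 counts, about 0.12 CPM. Nfkbie itself did not separate the genotypes in the spleen, ranging from 54.2 to 120.3 CPM among NFKBIE-ko and from 70.9 to 123.7 CPM among NFKBIE-wt spleens. In the PC it was lower in NFKBIE-ko, at 47.2 to 64.9 against 67.3 to 91.2 CPM. The log2 difference there was -0.56 ± 0.12 SE (edgeR adjusted p = 0.00377), and in vitro it was -0.93 ± 0.33 SE (edgeR adjusted p = 0.517). In these bulk samples fewer cells of a type and less RNA per cell cannot be told apart.

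Both a spleen and a culture library went against their labels by the erythroid genes. The 8 genes summed to 276, 2025 and 1189 CPM in NFKBIE-wt spleen replicates 1 to 3, but to 6.884 CPM in replicate 4. In the NFKBIE-wt cultures they summed to 12.06 and 20.73 CPM in replicates 1 and 2, but to 1413 CPM in replicate 3. Granulocyte genes moved with them, but not every list of another cell type did. The sum of 6 red pulp macrophage genes was 81.3 CPM in spleen replicate 4, against 66.1 to 100.3 CPM in the other NFKBIE-wt spleens. It was 78.4 CPM in culture replicate 3, against 43.5 to 93.6 CPM in the other NFKBIE-wt cultures. The summed level of 10 granulocyte genes was 68.8 to 429.3 CPM in the other NFKBIE-wt spleens and 0.116 CPM in replicate 4, where S100a8, S100a9 and Ngp were at 0. It was 222.9 CPM in culture replicate 3 and 0.154 to 4.38 CPM in the other 5 cultures. Nfkbie was at 124 CPM in spleen replicate 4, against 70.9 to 76.9 CPM in the other NFKBIE-wt spleens. It was at 54.3 CPM in culture replicate 3, against 116.8 and 140.6 CPM in the other NFKBIE-wt cultures and 48.2 to 59.9 CPM in the NFKBIE-ko cultures. The labels were kept, no library was moved between groups, and whether the pair had been exchanged was not tested. Group comparisons of the 8 genes that rest on them are given with and without them.

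**Figure D1:**
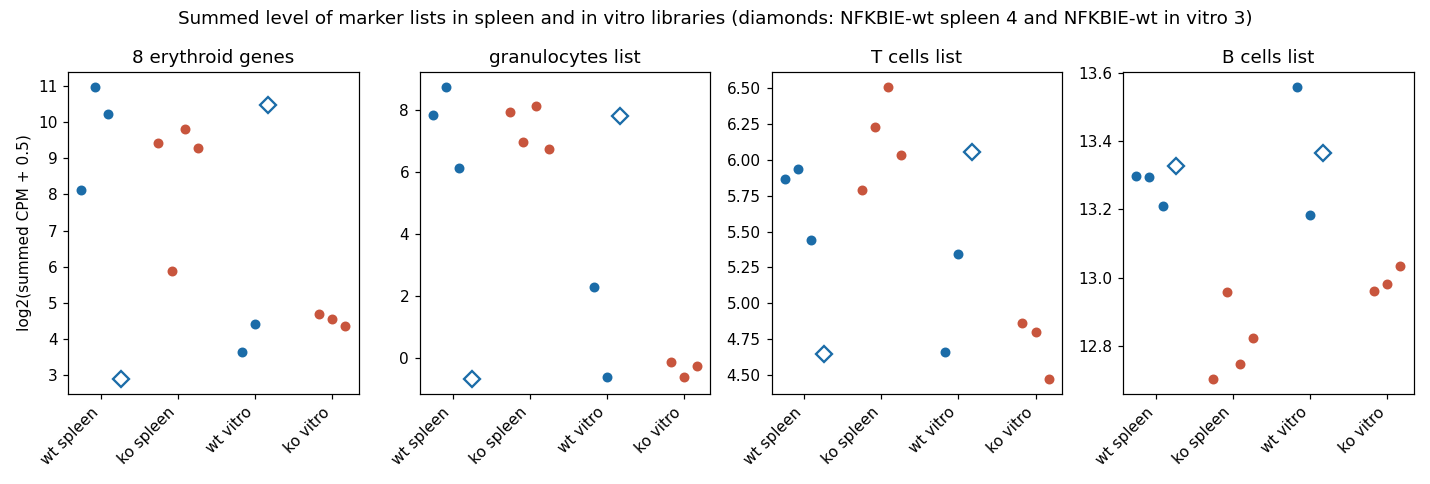
Summed level (CPM) of the 8 erythroid genes and of granulocyte, T cell and B cell genes in each spleen and in vitro library, with NFKBIE-wt spleen replicate 4 and NFKBIE-wt in vitro replicate 3 drawn as diamonds. The erythroid and granulocyte sums of these libraries lie with the other site, at 6.884 and 1413 CPM for the erythroid genes, while their B cell sums, 10280 and 10550 CPM, lie near those of the other NFKBIE-wt libraries.

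Globin transcripts made up most of the erythroid signal in the spleen. Hbb-bs was measured at 75.3, 770.5, 424 and 0 CPM in NFKBIE-wt spleens 1 to 4, and at 245, 14.1, 371 and 223 CPM in NFKBIE-ko spleens 1 to 4. Hba-a1 was at 93.9, 550.6, 335 and 0.0387 CPM in NFKBIE-wt and at 191, 21.2, 229 and 163 CPM in NFKBIE-ko. For both genes the highest NFKBIE-wt library was spleen 2, and spleen 2 was also the lowest NFKBIE-ko library, the numbers not being a pairing of mice. Hba-a2 was at 41.3, 378.4, 236 and 0 CPM in NFKBIE-wt and at 139, 12.1, 178 and 138 CPM in NFKBIE-ko. Hbb-bt was at 24.3, 203.3, 103 and 5.53 CPM in NFKBIE-wt and at 62.3, 4.92, 82.6 and 57.8 CPM in NFKBIE-ko. It was the lowest of the 4 in every spleen but NFKBIE-wt spleen 4, where it was the highest. For all 4 globin genes the NFKBIE-ko values lay within the range of NFKBIE-wt, except that NFKBIE-ko spleen 2 was below all NFKBIE-wt libraries for Hbb-bt.

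Per kilobase of transcript, the mean level in NFKBIE-wt spleens ran in the order Hbb-bs (478.1 ± 533.2 SD), Hba-a1 (331.8 ± 335.9), Hba-a2 (253.3 ± 272.2) and Hbb-bt (119.4 ± 127.9 CPM per kb, n = 4). The order was the same in NFKBIE-ko spleens, at 321 ± 222.6, 204.4 ± 122.7, 180.6 ± 111.8 and 73.7 ± 47.1 CPM per kb. Neighbors in this order differed by less than the larger of their SDs in either genotype. The ratio of α-globin to β-globin per kilobase was 1.29, 0.918 and 1.04 in NFKBIE-wt spleens 1 to 3 and 1.04, 1.68, 0.866 and 1.04 in NFKBIE-ko. Hbb-bt made 18.7% to 23.3% of the β-globin signal per kilobase in the former and 17.4% to 24.8% in the latter. The division of the chains thus stayed in a narrow range while the total differed by over 10 times between spleens, from 58.4 to 2025 CPM over the 8 genes without NFKBIE-wt replicate 4.

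The remaining members lay far lower. Alas2 was at 6.1, 30.02, 25.6 and 0 CPM in NFKBIE-wt spleens and at 15.5, 1.3, 12.7 and 11.8 CPM in NFKBIE-ko spleens, and the groups overlapped. Slc4a1 was at 29.2, 75.2, 62.8 and 1.16 CPM in NFKBIE-wt and at 31.05, 3.7, 22.9 and 27.7 CPM in NFKBIE-ko. Only NFKBIE-ko spleen 1 exceeded NFKBIE-wt spleen 1 for this membrane transporter. Epor was at 2.13, 6.47, 3.2 and 0 CPM in NFKBIE-wt and at 0.804, 0.433, 0.357 and 0.647 CPM in NFKBIE-ko. Its 3 higher NFKBIE-wt libraries, with 53, 160 and 82 counts, all exceeded the NFKBIE-ko range of 9 to 20.9 counts, whereas the fourth had no count.

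Klf1 did not follow the others in every library. It was at 3.98, 10.8, 0 and 0.155 CPM in NFKBIE-wt spleens and at 1.23, 0.748, 0.476 and 0.685 CPM in NFKBIE-ko spleens. The 0 in NFKBIE-wt spleen 3 stood beside 424 CPM of Hbb-bs and 3.2 CPM of Epor in the same library. The transcript counted (1544 bases) is identical in sequence to another annotated Klf1 transcript, which was not analysed here, and whether reads were assigned to that one in this library was not tested.

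**Figure D2:**
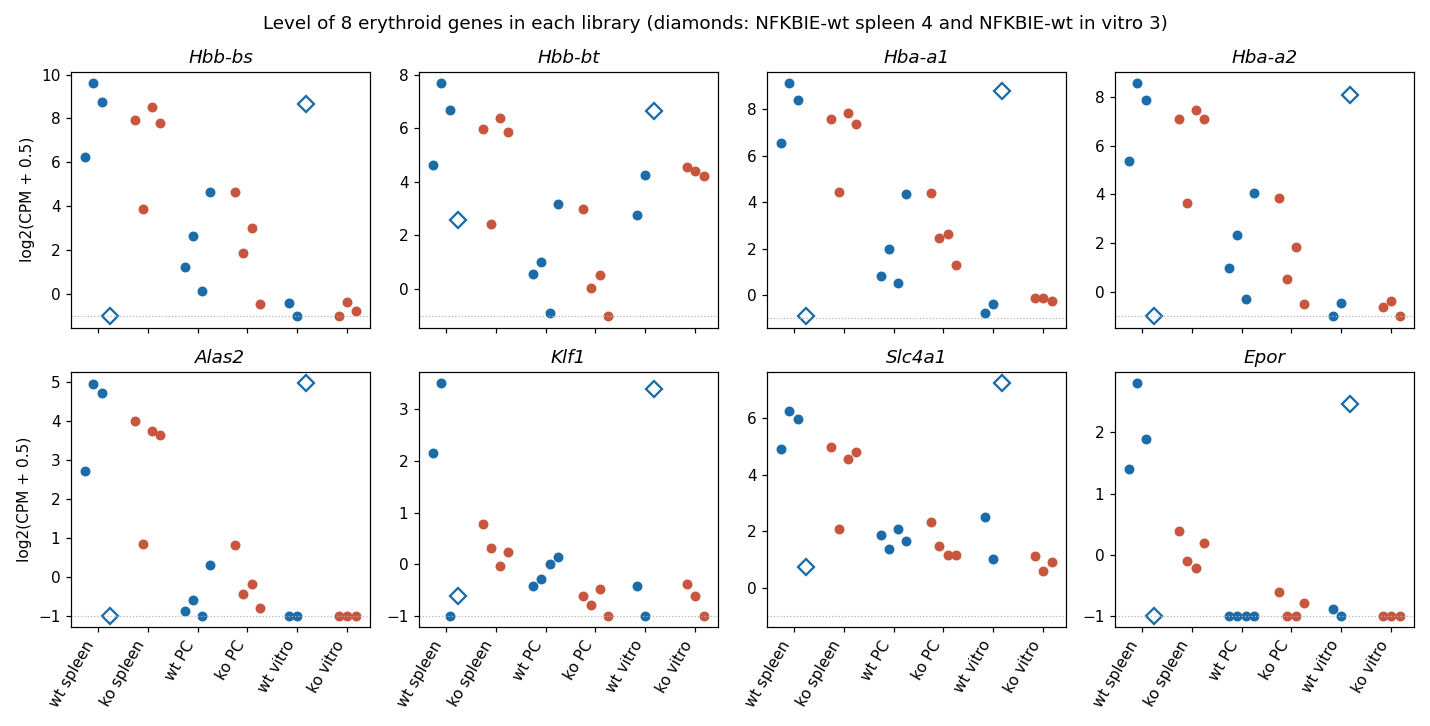
Level of each of the 8 genes as log2(CPM + 0.5) in all 22 libraries, 1 panel per gene, by genotype and site, with the 2 libraries that went against their labels drawn as diamonds. Diamonds aside, most spleens lie above PC and cultures, but some overlap them for Hbb-bs, Hbb-bt, Hba-a2, Klf1 and Slc4a1. Hbb-bs spans 0 to 770.5 CPM, while Hbb-bt stays at 6.31 to 23.04 CPM in the other 5 cultures.

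Across the 8 spleens the members varied together to different degrees. On the log2(CPM + 0.5) scale the 6 pairs of globin genes had Pearson correlations of 0.868 to 0.999, and 0.987 to 0.998 over the 7 libraries without NFKBIE-wt replicate 4. Hbb-bs correlated with Alas2 at 0.983 (0.981 over 7 libraries), with Epor at 0.677 (0.502) and with Klf1 at 0.367 (0.14). These describe 8 libraries that share 1 quantification, in which the globin pairs also share sequence. Relative to globin, Epor stood at 9.07, 3.4 and 2.91 counts per 1000 globin counts in NFKBIE-wt spleens 1 to 3 and at 1.26, 8.29, 0.415 and 1.11 in NFKBIE-ko. NFKBIE-ko spleen 2, which had the least globin, was the exception on this scale and lay within the NFKBIE-wt range. Alas2, by contrast, stood at 15.8 to 26 counts per 1000 globin counts in NFKBIE-wt and 14.8 to 24.9 in NFKBIE-ko, so its share of the globin signal overlapped throughout.

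The comparison of genotypes in the spleen asked whether the leukemia with edited Nfkbie was accompanied by a different erythroid content. Across 4 against 4 libraries, none of the 8 genes passed the test (edgeR quasi-likelihood, Benjamini-Hochberg adjusted p under 0.05 and a change over 2-fold), while 2.99% of all 12221 genes tested did. DESeq2 also called 0 of 8, and 1 gene had an unadjusted edgeR p under 0.05. The log2 difference, NFKBIE-ko minus NFKBIE-wt, was below 0 for all 8, with a median of -0.70 against -0.01 over all genes tested. It was -0.58 ± 1.45 (SE) for Hbb-bs, -0.70 ± 1.32 for Hba-a1, -0.58 ± 1.15 for Alas2 and -0.98 ± 0.94 for Slc4a1, each smaller than or close to its error. The largest differences were -2.39 ± 1.04 for Epor (edgeR adjusted p = 0.212) and -2.25 ± 1.31 for Klf1 (edgeR adjusted p = 0.339).

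This comparison turned on NFKBIE-wt spleen 4. Without it, Epor passed the test, at -2.80 ± 0.46 on the log2 scale (edgeR adjusted p = 0.00618), with mean levels of 0.560 ± 0.204 CPM over 4 NFKBIE-ko and 3.93 ± 2.26 CPM over 3 NFKBIE-wt spleens (± SD). All 4 NFKBIE-ko spleens were then below all 3 NFKBIE-wt spleens for Epor. The other 7 genes did not pass in this comparison, in which 6.36% of 12471 genes were called. Slc4a1 differed by -1.38 ± 0.59 (edgeR adjusted p = 0.165) and Klf1 by -2.65 ± 1.08 (edgeR adjusted p = 0.15). The globin genes differed by -0.90 to -1.11, with edgeR adjusted p-values from 0.401 to 0.571. The library was left out because its erythroid genes were near 0, so the NFKBIE-wt level rises by that choice alone. Leaving out NFKBIE-wt spleen 2, the highest library, instead turned the globin differences to 0.08 to 0.36 above 0.

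**Figure D3:**
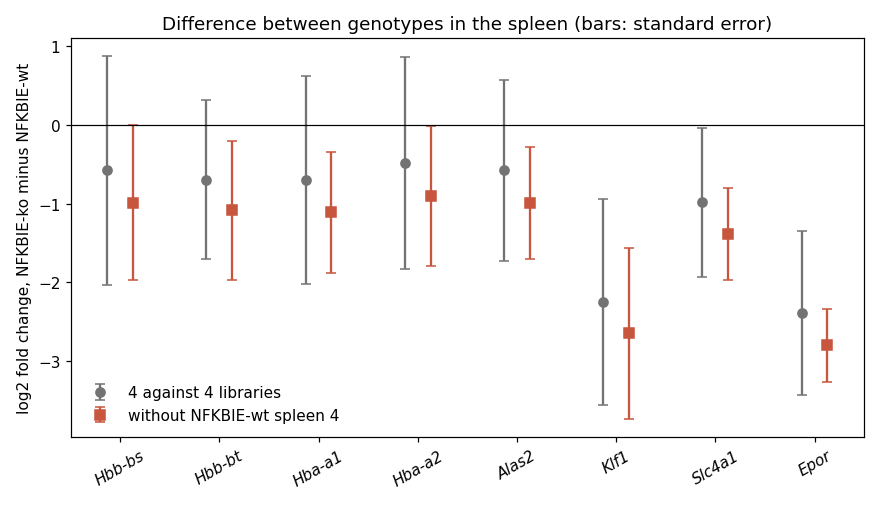
Difference between genotypes in the spleen (log2, NFKBIE-ko minus NFKBIE-wt) with its SE for each gene, over 4 against 4 libraries in grey and without NFKBIE-wt spleen replicate 4 in red. All 8 points lie below 0 in both, and only Epor without that library, at -2.80 ± 0.46, passed the edgeR test.

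Marker genes of other cell types were read in the same spleens. Over 4 against 4 libraries edgeR called 0 of 6 red pulp macrophage, 1 of 10 T cell and 0 of 9 B cell genes. The T cell gene was Cd8a, higher in NFKBIE-ko. In that order 2, 5 and 5 had an unadjusted edgeR p under 0.05, as 2814 of all 12221 genes had, and 2.99% of all were called. Without NFKBIE-wt spleen 4 the calls were 1 of 6 and 4 of 10, higher in NFKBIE-ko, and 1 of 9, lower. Then 3, 9 and 4 had an unadjusted edgeR p under 0.05, as 3445 of all 12471 genes had, and 6.36% of all were called. Red pulp macrophage genes summed to 66.1 to 100.3 CPM in the 4 NFKBIE-wt spleens and 78.7 to 351.4 CPM in NFKBIE-ko, with 6 of 6 genes above 0 in every NFKBIE-ko library. T cell genes summed to 24.6 to 60.6 CPM and 54.8 to 90.5 CPM, and B cell genes to 9480 to 10280 CPM and 6661 to 7948 CPM, in the same order. Without NFKBIE-wt spleen 4 the NFKBIE-wt sums were 43.03 to 60.6 CPM for T cell and 9480 to 10060 CPM for B cell genes. Ighm made up most of the B cell sum. It was at 7628 to 7795 CPM in NFKBIE-wt spleens 1 to 3, 7947 CPM in spleen 4 and 4964 to 5757 CPM in NFKBIE-ko. Over 4 against 4 libraries, 4 of the 9 B cell genes were higher and 5 lower in NFKBIE-ko. The red pulp macrophage list was not particular to the spleen. It summed to 43.5 to 93.6 CPM in NFKBIE-wt and 84.1 to 102.1 CPM in NFKBIE-ko cultures. In the PC it summed to 188.5 to 583.3 CPM in NFKBIE-wt and 1178 to 1511 CPM in NFKBIE-ko. Megakaryocyte genes, which share regulators with red cells, stayed between 1.65 and 4.61 CPM in all 8 spleens. The part of these cells in the erythroid values was not tested.

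Beyond the 8 genes, 5 lists of erythroid genes were read in the same comparison of genotypes. Over 4 against 4 libraries, 1 of 11 late erythroid genes passed and 0 of 11 heme synthesis genes, 0 of 9 transcription factors, 0 of 18 membrane and skeleton genes and 0 of 6 receptor and iron uptake genes did. By unadjusted edgeR p under 0.05 the counts were 2, 2, 3, 5 and 2 in the same order, beside 2814 of all 12221 genes. The gene that passed was Fam210b, a mitochondrial protein gene of maturing precursors, at 3.06 ± 0.194 CPM over 4 NFKBIE-ko and 7.58 ± 1.79 CPM over 4 NFKBIE-wt spleens (± SD). Its log2 difference was -1.32 ± 0.23 (edgeR adjusted p = 0.0156), and NFKBIE-wt spleen 4 was its highest library at 9.48 CPM. Xk, a membrane protein gene, differed by -0.86 ± 0.13 on the log2 scale (edgeR adjusted p = 0.00779), less than the 2-fold required for a call. Gypc, the glycophorin C gene, was higher by 0.59 ± 0.13 (edgeR adjusted p = 0.031), also under 2-fold. Members of the lists that other cells use too showed high levels in every spleen, including NFKBIE-wt spleen 4. Tfrc, the transferrin receptor gene, was at 162.9 to 215.7 CPM in NFKBIE-wt spleens 1 to 3, 301.5 CPM in spleen 4 and 149.8 to 286.1 CPM in NFKBIE-ko. Alas1, the housekeeping counterpart of Alas2, was at 47.5 to 63.8, 91.5 and 66.3 to 95.9 CPM in that order. Zfpm1, encoding the GATA1 cofactor FOG1, was at 276.9 to 389.6, 280.5 and 225.5 to 282.2 CPM.

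Without NFKBIE-wt spleen 4, more genes of these lists were called between genotypes. The counts became 3 of 9 transcription factors, 10 of 19 membrane and skeleton genes, 2 of 6 receptor and iron uptake genes, 5 of 12 late genes and 0 of 11 heme synthesis genes, all lower in NFKBIE-ko, beside the 6.36% of all genes called in either direction. Genes named here were picked by this call after the values were seen. The library was left out for its low erythroid genes, so that choice alone raises the NFKBIE-wt level of genes near 0 there. The 3 factors were Gata1 (3.25 to 8.41 CPM in NFKBIE-wt, 0.394 to 0.799 CPM in NFKBIE-ko), Tal1 (4.38 to 11.04 and 0.394 to 2.11 CPM) and Gfi1b (2.11 to 4.25 and 0.236 to 0.421 CPM). Car1, the red cell carbonic anhydrase gene that is on before the globins peak, was at 35.6 to 91.6 CPM in NFKBIE-wt and 1.42 to 3.79 CPM in NFKBIE-ko, a log2 difference of -4.37 ± 0.46 (edgeR adjusted p = 0.000937). Rhag, an ammonium channel gene of the red cell membrane, was at 9.68 to 20.4 and 0.433 to 2.22 CPM, and Add2, the β-adducin gene, at 8.03 to 18.2 and 0.394 to 1.71 CPM. Hemgn, a nuclear protein gene of precursors, was at 6.83 to 13.1 and 0.709 to 2.91 CPM. For these 7 genes the lowest of the 3 NFKBIE-wt spleens exceeded the highest of 4 NFKBIE-ko spleens, and all 7 were at 0 or 0.0387 CPM in NFKBIE-wt spleen 4.
With all 8 libraries the same factors did not pass, at log2 differences of -2.73 for Gata1 (edgeR adjusted p = 0.172), -2.31 for Tal1 (edgeR adjusted p = 0.25) and -2.85 for Gfi1b (edgeR adjusted p = 0.107). Car1 likewise missed the threshold with all 8, at -3.96 ± 1.24 (edgeR adjusted p = 0.102).

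**Figure D4:**
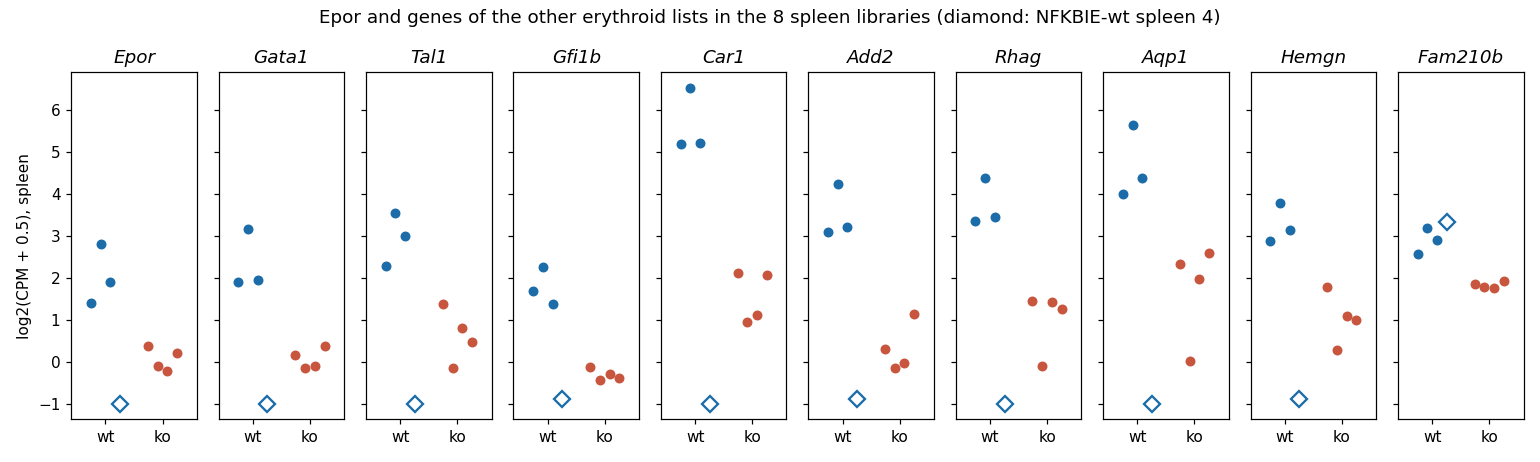
Level (log2(CPM + 0.5)) of Epor, Gata1, Tal1, Gfi1b, Car1, Add2, Rhag, Aqp1, Hemgn and Fam210b in the 8 spleen libraries, with NFKBIE-wt spleen replicate 4 as a diamond. NFKBIE-wt spleens 1 to 3 lie above all 4 NFKBIE-ko spleens for each gene, while replicate 4 lies at or near 0 for all but Fam210b, at 9.48 CPM.

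Among the 10 genes whose levels followed the mean of the 8 members most closely over the 8 spleens were Arl4a, Tm6sf1, St3gal5, Nfe2, Slc16a10, Fnip2, Tspo2, Trim10 and Smox. The Pearson correlations of the 10 on the log2(CPM + 0.5) scale ran from 0.966 to 0.993 among 11219 genes with at least 1 CPM on average, and from 0.932 to 0.983 without NFKBIE-wt spleen 4. Without that library Arl4a, St3gal5 and Tspo2 stayed among the 10 highest, at ranks 4, 2 and 7, while the other named genes ranked from 13 to 65. Nfe2 encodes a globin regulator and Trim10 a protein of late precursors, and both were on the erythroid lists. Trim10 ranged from 0 to 6.84 CPM in the spleens, reached 9.7 CPM in NFKBIE-wt culture 3 and was at most 0.0385 CPM in the other cultures.

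Comparing the spleen with the PC of the same genotype showed higher levels of the erythroid genes in the spleen. The study's flow cytometry methods describe lysis of red cells for spleen suspensions and none for peritoneal lavage. Whether the sequenced cells were handled in this way is not given in the sources used here, and such handling and site cannot be told apart. Spleen and PC came from the same recipients, but the labels do not tie a library to a mouse, so these tests treat libraries that may share a mouse as independent. The 8 genes summed to 4.27 to 72.9 CPM in the 8 PC libraries. In NFKBIE-ko, 7 of 7 genes tested were higher in the spleen, where 22.1% of all 12628 genes were called in either direction, 816 of them higher in the spleen. Hbb-bs was at 24.6, 3.18, 7.48 and 0.237 CPM in NFKBIE-ko PC, and NFKBIE-ko spleen 2 at 14.1 CPM lay inside this range. Its log2 difference was 4.58 ± 1.24 (edgeR adjusted p = 0.0121), a 24-fold ratio of means. Hba-a1 was at 20.7, 5.04, 5.61 and 1.98 CPM in NFKBIE-ko PC, just under the lowest spleen at 21.2 CPM, and differed by 4.17 ± 0.89 (edgeR adjusted p = 0.00367). Alas2 was at 1.25, 0.238, 0.382 and 0.0791 CPM in NFKBIE-ko PC, below all spleens, and differed by 4.38 ± 0.84 (edgeR adjusted p = 0.00138). Klf1 was at 0.152, 0.0794, 0.212 and 0 CPM, below all spleens, and differed by 2.79 ± 0.61 (edgeR adjusted p = 0.00309). Slc4a1 was at 4.44, 2.3, 1.7 and 1.7 CPM and differed by 3.07 ± 0.60 (edgeR adjusted p = 0.0015). Epor had 4, 0, 0 and 2 counts in NFKBIE-ko PC, too few for the filter, and all 4 spleens were higher.

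In NFKBIE-wt, 3 of 7 genes tested were higher in the spleen than in the PC, Hbb-bt by 4.93 ± 1.36 (edgeR adjusted p = 0.0278), Alas2 by 6.04 ± 1.63 (edgeR adjusted p = 0.0254) and Slc4a1 by 3.83 ± 0.96 (edgeR adjusted p = 0.0193), where 11.1% of 12370 genes were called. Hbb-bs differed by 5.27 ± 1.87 (edgeR adjusted p = 0.0663), its PC values being 1.82, 5.72, 0.585 and 24.3 CPM. Without NFKBIE-wt spleen 4, 8 of 8 genes were higher in the spleen, where 14.4% of 12655 genes were called. That library was left out because its erythroid genes were near 0, so the spleen level rises by that choice alone. Hbb-bs then differed by 5.69 ± 1.33 (edgeR adjusted p = 0.0166) and Slc4a1 by 4.24 ± 0.33 (edgeR adjusted p = 0.000101). Epor, with no count in any NFKBIE-wt PC library, was at least 32.4-fold higher in these 3 spleens, taking the PC at the limit of 3 counts in each library. The call in NFKBIE-wt also depended on the PC libraries, since leaving out NFKBIE-wt PC 1, 2 or 3 left 0 genes called, leaving out NFKBIE-wt spleen 2 left 1, and 7 were called by DESeq2.

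Between genotypes in the PC, 0 of 5 genes tested passed (edgeR adjusted p from 0.657 to 0.95, none with an unadjusted p under 0.05), against 13.5% of 12642 genes. DESeq2 called 1, Klf1, at -1.92 on the log2 scale (DESeq2 adjusted p = 0.0454). It had 6, 8, 13 and 14 counts in NFKBIE-wt PC and 4, 2, 5 and 0 in NFKBIE-ko, and edgeR's filter on low counts removed it. Highest in each genotype was a single library, NFKBIE-wt PC 4 and NFKBIE-ko PC 1, with Hbb-bs at 24.3 and 24.6 CPM. Peritoneal macrophage genes summed to 261.7 to 709.3 CPM in NFKBIE-wt PC and 2119 to 3057 CPM in NFKBIE-ko PC. The genotype effect in the spleen was not shown to differ from that in the PC, with 0 of 8 genes called against 1.9% of 13537 genes, none with an unadjusted p under 0.05 and 0 by DESeq2. Without NFKBIE-wt spleen 4 and NFKBIE-wt culture 3 the difference was called for 1, Epor.

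In vitro, most erythroid transcripts were absent or at a few counts. In NFKBIE-ko cultures, Alas2 and Epor had no count in any of 3 libraries. Hbb-bs had 0, 7.06 and 1.91 counts, against 357.67 to 9348 counts in NFKBIE-ko spleens, a log2 difference of 10.77 ± 1.50 between sites (edgeR adjusted p = 0.0009). In all, 7 of 8 genes were higher in NFKBIE-ko spleens than in NFKBIE-ko cultures, against 15.1% of 12355 genes called. Hba-a1 differed by 8.58 ± 1.01 (edgeR adjusted p = 0.000383), Hba-a2 by 9.63 ± 1.27 (edgeR adjusted p = 0.000672) and Slc4a1 by 3.99 ± 0.70 (edgeR adjusted p = 0.00271). Alas2 was at least 88.2-fold and Epor at least 4.78-fold higher in the spleens, with cultures at the limit of 3 counts in each library. Klf1 was higher by 2.43 ± 0.71 (edgeR adjusted p = 0.0266).

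Hbb-bt was the exception. It was at 23.04, 20.9 and 18.3 CPM in NFKBIE-ko cultures, with 443 to 614 counts, and its difference of 1.33 ± 0.70 from NFKBIE-ko spleens did not pass (edgeR adjusted p = 0.168). NFKBIE-wt cultures 1 and 2 had 6.31 and 18.7 CPM of Hbb-bt with 0.241 and 0 CPM of Hbb-bs. NFKBIE-wt spleen 4 showed the same combination, with 143 counts of Hbb-bt and 0 of Hbb-bs. In these 5 cultures Hbb-bt made 96.1% to 100% of the β-globin signal per kilobase, against 17.4% to 24.8% in the other 7 spleens. NFKBIE-wt culture 3 had 100.2 CPM of Hbb-bt and 403.5 CPM of Hbb-bs, a share of 19% as in the spleens. Reads that match only sequence shared with Hbb-bs could be counted for either gene, and the part of this in the Hbb-bt counts was not tested. In the same 5 cultures Hba-a1 was at 0.0804 to 0.4235 CPM.

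**Figure D5:**
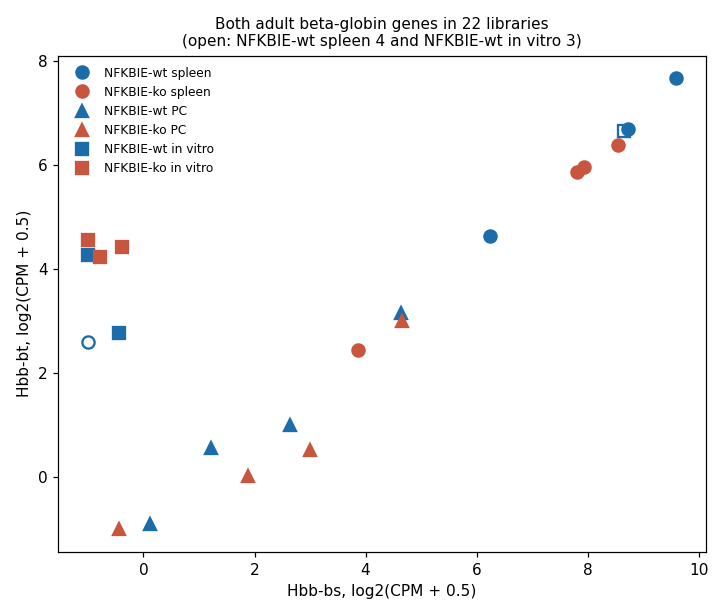
Level of Hbb-bt against Hbb-bs (log2(CPM + 0.5)) in the 22 libraries by site and genotype. Spleens, PC libraries and NFKBIE-wt in vitro replicate 3 follow 1 rising line, while the other 5 cultures and NFKBIE-wt spleen replicate 4 hold Hbb-bt at 5.531 to 23.04 CPM with Hbb-bs at 0 to 0.2695 CPM.

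The embryonic β-globin genes nearby had a few counts in some cultures and in NFKBIE-wt spleen 4, and none in the PC or the other spleens. Of 17 annotated genes within 50000 bases of the 2 adult genes, 5 were in the table. Hbb-bh1 had 21, 27 and 27 counts in NFKBIE-ko cultures, 12 and 7 in NFKBIE-wt cultures 1 and 2, 13 in NFKBIE-wt spleen 4 and 0 in all other libraries, NFKBIE-wt culture 3 included. Hbb-y had 14, 8 and 18 counts in NFKBIE-ko cultures, 7 in NFKBIE-wt culture 1, 4 in NFKBIE-wt spleen 4 and 0 elsewhere. Hbb-bh1 was lower in NFKBIE-ko spleens, where it had no count, than in NFKBIE-ko cultures at 0.981 ± 0.171 CPM (SD, n = 3; edgeR adjusted p = 0.00101). Between genotypes in vitro it differed by 1.96 ± 0.93 on the log2 scale, which did not pass (edgeR adjusted p = 0.531).

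The NFKBIE-wt comparison of spleen with culture rested wholly on the libraries in doubt. With all of them 0 of 8 genes and 0% of 12332 genes were called by edgeR, 136 genes had an unadjusted p under 0.05 but none of the 8 did, and DESeq2 called 0 of 8. Without NFKBIE-wt spleen 4 and NFKBIE-wt culture 3, 6 of 8 were higher in the spleens, against 5.81% of 12472 genes. Both libraries were left out for their levels of these same 8 genes. The difference between sites thus rises by that choice alone, and its p-values do not allow for it. Hbb-bs differed by 11.75 ± 1.72 (edgeR adjusted p = 0.0235), Hba-a1 by 10.81 ± 1.23 (edgeR adjusted p = 0.00997) and Hba-a2 by 10.80 ± 1.63 (edgeR adjusted p = 0.025). Slc4a1 differed by 4.07 ± 0.68 (edgeR adjusted p = 0.0269), whereas with all libraries its mean was lower in the spleens than in the cultures, at 42.06 and 52.2 CPM. Alas2 was at least 174-fold higher and Epor, with 1 and 0 counts in NFKBIE-wt cultures 1 and 2, passed too (edgeR adjusted p = 0.015). Hbb-bt again did not pass, at 3.13 ± 1.02 (edgeR adjusted p = 0.144), nor did Klf1, at 5.32 ± 2.31 (edgeR adjusted p = 0.237).

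Between genotypes in vitro, 0 of 3 genes tested passed, against 0.0341% of 11722 genes. Slc4a1 differed by -5.31 ± 1.81 and Hba-a1 by -8.57 ± 3.20 (edgeR adjusted p = 0.517 for both), each with an unadjusted p under 0.05, and DESeq2 called 0. Without NFKBIE-wt culture 3, 0 of 3 passed and none had an unadjusted p under 0.05, against 0.0759% of 11865 genes. Hba-a1 was then at 1.13 and Slc4a1 at -1.30 on the log2 scale. The difference of the genotype effect between spleen and culture was called for 0 of 8 genes by edgeR, against 0.355% of 13537 genes, with 5 at an unadjusted p under 0.05. DESeq2 called 4, Hbb-bs, Hba-a1, Hba-a2 and Alas2, with all libraries included.

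The other erythroid genes divided by list in the comparison of NFKBIE-ko spleens with the other sites. Against NFKBIE-ko PC, 10 of 16 membrane and skeleton genes tested were higher in the spleen, among them Ank1 (ankyrin), Rhag and Kel. Of 10 late genes, Car1, Car2 and Hemgn were higher and Fam210b lower in the spleen. Of 7 transcription factors 1, Zfpm1, was higher and Nfe2, Gfi1b and Lmo2 were lower. Of 5 receptor and iron uptake genes, Tfrc and Erfe were higher and Steap3 lower. Over all genes tested here 22.1% were called, 816 higher and 1976 lower in the spleen. Of 11 heme synthesis genes 0 passed both criteria of the edgeR test, 9 having an unadjusted p under 0.05, as 8084 of all 12628 genes had, and the list a median log2 difference of 0.44 against 0.01 over all genes tested. Against NFKBIE-ko cultures, where 15.1% of all genes were called, 11 of 18 membrane and skeleton genes were higher, as was Steap3 of 5 receptor and iron uptake genes, with Gata1, Tal1 and Nfe2 among 8 factors and Car1, Car2, Trim10, Hemgn and Tent5c among 11 late genes, and Fam210b was again lower in the spleen. There 0 of 11 heme synthesis genes passed both criteria, 8 having an unadjusted edgeR p under 0.05, as 5931 of all 12355 genes had, with a median log2 difference of 0.31 against 0.05 over all genes tested. These 11 enzymes and carriers serve cells outside the red lineage as well, unlike Alas2.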

How the data were processed

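Polyadenylated RNA of 22 samples was sequenced (TruSeq mRNA libraries, Illumina NovaSeq). The submitters' processing notes name CASAVA, Salmon 1.8, GRCm39 and DESeq2. The deposited table holds the authors' estimated counts per transcript from Salmon, not normalized (69.5% of values were not whole, and each transcript was above 0 in at least 5 libraries). Whether the counting used strand is not given in the sources used here. Of 62492 transcripts, 62147 matched GENCODE, the rest holding 0.619% of counts, and these were summed to 17023 genes and rounded for the tests.

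Samples were grouped by title and source name. Each comparison was fitted on its own groups with edgeR 4.0.16 (R 4.3.3, limma 3.58.1; filterByExpr, TMM, robust quasi-likelihood test), adjusted over all genes tested. Differences between comparisons were tested as an interaction of the 4 groups concerned, within 1 fit of all 22 libraries. A call needed an adjusted p under 0.05 and a log2 difference over 1. The procedure was tested on simulated data. Likeness and figures used log2(CPM + 0.5) (Python 3.11.15, numpy 2.4.6, pandas 2.3.3, matplotlib 3.10.9). Bounds against groups without counts set 3 counts in each library, which covers counting error only. Totals of 24036763 to 26581304 counts per library set the precision.

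Replicates were samples labelled as separate, and all pairs within a group differed by more than sampling noise. The labels do not tie each sample to a particular animal, so p-values measure the spread between these samples. Residual correlations between same-numbered libraries of 2 groups ran from -0.34 to 0.458. Both extremes came from NFKBIE-wt spleen against in vitro, which holds the libraries that went against their labels. For NFKBIE-ko spleen against PC they ran from -0.052 to 0.228. These values do not settle whether a replicate number marks a mouse. Alternatives were DESeq2 1.42.0, its size factors, no filter, single transcripts, all libraries in 1 fit, a replicate block, and each library left out. Leaving libraries out of the counts for the other erythroid lists and the cell type lists was added after seeing the data.

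The 8 genes and all lists were chosen with earlier results of these data known. Named beside the members were, from each erythroid list, genes among the 3 highest in the spleen and genes called between genotypes there, and the 10 genes most like the members' mean. Genes called without NFKBIE-wt spleen replicate 4, or in comparisons between sites, were named after their values were seen. Hbb-bh2, Hba-x, Hbq1a and Ahsp were not analysed here. A few genes that met these rules are not reported here.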

Additional observations from a re-analysis of the deposited data

Results flagged for a closer look

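In groups of 4 libraries, 31 sets of member values were screened for a library far from the other 3, and 2 were picked out, where chance alone picks out about 1 in 20. Hbb-bt was at 7.52 CPM in NFKBIE-ko PC replicate 1, the next library being at 0.935 CPM, a gap of 0.876 of the group's range, past Dixon's critical value. Hba-a1 was at 19.8 CPM in NFKBIE-wt PC replicate 4, the next library being at 3.42 CPM, a gap of 0.868 of the range. In both libraries the other globin genes were also the highest of their group.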

How the results depend on the processing

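Counts of the 8 genes called changed with the processing as follows. Spleen against PC in NFKBIE-wt, 3 of 7, became 7 with DESeq2, 6 with all 22 libraries in 1 fit, and 0 per transcript or with the replicate block, with 0 to 8 on leaving out single libraries. In NFKBIE-ko it became 4 with all 22 libraries in 1 fit (7 to 8 on leaving out single libraries). DESeq2 called 1 between genotypes in the PC and 4 in the difference between spleen and in vitro. Leaving out both libraries that went against their labels gave 6 for spleen against in vitro in NFKBIE-wt and 1 for the difference between spleen and PC. Single libraries left out gave 0 to 1 between genotypes in the spleen and 5 to 7 for spleen against in vitro in NFKBIE-ko.

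Libraries were also left out for the other erythroid lists, an alternative added after seeing the data. Leaving out NFKBIE-wt spleen replicate 4 gave 3 transcription factors, 10 membrane, 2 receptor and 5 late genes between genotypes in the spleen. All were lower in NFKBIE-ko, beside 6.36% of all genes called. For spleen against PC in NFKBIE-wt it gave 1 of 11 heme synthesis genes and 3 of 9 transcription factors. It also gave 15 of 19 membrane, 3 of 6 receptor and 5 of 11 late genes. All of these were higher in the spleen, beside 14.4% of all genes called in either direction. For spleen against in vitro in NFKBIE-wt, leaving out both libraries gave 4 of 9 transcription factors, 12 of 19 membrane, 2 of 6 receptor and 4 of 11 late genes. These were all higher in the spleen, whereas the 1 of 11 heme synthesis genes called was lower there. Over all genes tested 5.81% were called.

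The labels do not say that a replicate number marks a mouse, although spleen and PC libraries come from the same recipients. With the replicate block, the log2 difference between genotypes in the spleen turned to 0.77 for Hbb-bs, 0.23 for Hbb-bt, 0.32 for Hba-a1, 0.71 for Hba-a2 and 0.20 for Alas2, and Slc4a1 in spleen against in vitro, NFKBIE-wt, to 2.29 (4.07 without both libraries). The cause was not tested.

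Leaving out single libraries also turned directions of differences that had not passed. Ranges between genotypes in the spleen were -0.99 to 0.36 for Hbb-bs, -1.09 to 0.23 for Hbb-bt, -1.11 to 0.079 for Hba-a1 and -0.90 to 0.34 for Hba-a2. In the PC they were -1.17 to 1.72, -2.51 to 1.42, -0.61 to 2.15 and -2.03 to 1.11 for the same genes in order. In vitro they were -1.54 to 0.73 for Hbb-bt and -9.15 to 1.13 for Hba-a1. Spleen against in vitro in NFKBIE-wt ranged from -0.029 to 10.40 for Hba-a1 (10.81 without both), -0.86 to 3.67 for Slc4a1, -0.005 to 11.61 for Alas2 and -0.43 to 4.92 for Klf1 (5.32 without both). Under the other settings tried, 120 counts stayed within 1.5 times their value. Epor, Klf1 and Alas2 had few counts outside the spleen, which limits them there.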
